A study of Mus musculus with 86 samples.

Results

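The 10 genes described here encode proteins of the Polycomb repressive complexes: Phf19, Mtf2, Ezh2, Eed, Suz12, Pcgf6, Bmi1, Rnf2, Ring1 and Cbx2. They were chosen by name, and all 10 were found among the 12360 genes of the deposited expression table. Phf19 was included because earlier results of these same data had shown it to differ between groups of cells, so its levels, like those of the other 9 genes, are given as a description and no test was made.

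The RNA came from 86 individual cells of mouse kidneys at 12.5 dpc, Theiler stage 20, which were wild type, of mixed background and pooled from males and females. The labels name no transgene and no treatment, and each cell was captured in a chamber of a Fluidigm C1 instrument, a microfluidic device that makes cDNA from 1 cell at a time. All cells came from 1 pool of kidneys, so they are 1 sample, cells are not replicates of each other, and no p-value is given. The cells were divided by the level of 2 genes, in RPKM (reads scaled to transcript length and to the mapped reads of a cell). The 7 bud cells had Mal2, an epithelial membrane protein gene, at an RPKM of at least 100. The 46 Six2-detecting cells were not bud cells and had Six2, the transcription factor gene of nephron progenitors, at an RPKM of at least 1. The 33 remaining cells were all the others.

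The margin of the Mal2 rule was wide and that of the Six2 rule was narrow. The lowest Mal2 level in a bud cell was 1219 RPKM, against 3.41 RPKM in the highest other cell. The lowest Six2 level in a Six2-detecting cell was 1.50 RPKM, against 0.527 RPKM in the highest remaining cell. With a Six2 limit of any RPKM above 0 there would be 52 Six2-detecting cells, with a limit of 3 RPKM 45, and with a limit of 5 RPKM 43. Detection of marker lists was then described for each group. The ureteric bud list holds Mal2 and the nephron progenitor list holds Six2. For these genes the tallies follow from the grouping rule and are no check of it. Bud cells detected a median of 13 of 14 ureteric bud markers, Six2-detecting cells 3 and remaining cells 3. Of 14 nephron progenitor markers the medians were 7 in bud cells, 11 in Six2-detecting cells and 5 in remaining cells. Of 17 stroma markers they were 4 in bud cells, 9.5 in Six2-detecting cells and 13 in remaining cells. The remaining cells were thus mostly rich in stroma markers, but some carried markers of the induced nephron, with up to 10 of 10 in a cell. Foxd1, the transcription factor gene of cortical stroma, was detected in 3 of 7 bud cells, in 31 of 46 Six2-detecting cells and in 25 of 33 remaining cells. Of the 7 bud cells, 3 also detected Six2, at 18.6, 50.4 and 12.1 RPKM.

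Polycomb proteins keep developmental genes silent by modifying chromatin. Polycomb repressive complex 2 places methyl groups on lysine 27 of histone H3, and its core is formed by the methyltransferase Ezh2 (or Ezh1) with Eed, which binds the methylated histone, and Suz12, the scaffold. Mtf2 and Phf19 are related Polycomb-like proteins that join this core as alternative partners and help to bring it to chromatin. Polycomb repressive complex 1 ubiquitinates histone H2A through Rnf2 or its paralog Ring1. Each such complex holds a single PCGF protein: Bmi1 sits in complexes that also hold a CBX reader such as Cbx2, and Pcgf6 sits in a variant complex with Mga, L3mbtl2 and E2f6. In the kidney, Polycomb complex 2 is known to be needed in nephron progenitors for their continued self-renewal.

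Promoter sequence is shown for 3 genes. Phf19 and Pcgf6 were detected in a minority of all cells, and Mtf2, the Polycomb-like relative of Phf19, in nearly all of them. Each line is the 250 bases before the annotated start, from RefSeq on GRCm38.p6, written 5′ to 3′ on the strand of the gene. Capitals mark matches to 3 E2F-type motifs, which were searched on both strands. The motifs were GCGGGAA, then the less common form TTTCGCG, and as the last form TTTGGCG.
Phf19, chr2:34913977-34914226, minus strand: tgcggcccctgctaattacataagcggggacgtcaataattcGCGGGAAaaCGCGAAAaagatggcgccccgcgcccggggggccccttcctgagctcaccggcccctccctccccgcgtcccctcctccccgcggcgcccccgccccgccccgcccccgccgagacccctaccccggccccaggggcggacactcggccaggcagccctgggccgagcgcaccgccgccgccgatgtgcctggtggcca
Pcgf6, chr19:47050907-47051156, minus strand: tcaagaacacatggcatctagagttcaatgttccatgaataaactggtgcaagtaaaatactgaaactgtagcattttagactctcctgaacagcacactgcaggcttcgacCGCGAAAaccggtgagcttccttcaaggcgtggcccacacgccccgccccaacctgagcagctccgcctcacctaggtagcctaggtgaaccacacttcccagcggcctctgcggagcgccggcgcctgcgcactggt
Mtf2, chr5:108065424-108065673, plus strand: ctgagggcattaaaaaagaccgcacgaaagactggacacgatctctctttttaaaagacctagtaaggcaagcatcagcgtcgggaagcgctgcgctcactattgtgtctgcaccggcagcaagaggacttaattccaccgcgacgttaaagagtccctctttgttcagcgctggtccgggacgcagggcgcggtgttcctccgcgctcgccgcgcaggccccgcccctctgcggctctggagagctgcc
The Phf19 window held 2 matches, GCGGGAA and, with 2 bases between them, CGCGAAA, starting 208 and 199 bases before the start. Its GC content was 75.2%, with 31 CpG dinucleotides. The Pcgf6 window held 1 match, CGCGAAA, at 138 bases before the start, with 14 CpG dinucleotides. The Suz12 window (chr11:79992856-79993105) held 1 match, TTCCCGC, at 218 bases before the start. No full match to these motifs was found in either of the 2 annotated windows of Mtf2 or in those of Ezh2, Eed, Bmi1, Rnf2 and Ring1. RefSeq windows were matched for 9 of the 10 genes, Cbx2 being the other. At least 1 of the 3 motifs occurred in 3 of the 10 windows of these 9 genes and in 5.58% of all 32851 windows of the table. Of the single motifs, GCGGGAA was in 3.82% of all windows, TTTCGCG in 0.703% and TTTGGCG in 1.26%. TCAGGTT, a motif like that bound by Six2, searched on both strands, was in the Pcgf6 window among those of the 10 genes and in 3.49% of all windows. On both strands, CACGTG was in the window of Bmi1 and in 6.02% of all windows. CCAAT, also searched on both strands, was in the windows of Ezh2 and Suz12 and in 33.8% of all windows. For Mtf2 it was only in the annotated window that is not shown here. These matches are a description of letters and do not show binding.

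The genes differed widely in level. Over all 86 cells the mean RPKM was 99.8 ± 65.2 for Ezh2, 67.6 ± 66.9 for Rnf2, 45.5 ± 40.6 for Mtf2 and 35.2 ± 43.4 for Eed (SD over cells). It was 23.0 ± 24.5 for Suz12, 14.0 ± 37.5 for Bmi1, 11.0 ± 22.0 for Phf19, 8.02 ± 18.5 for Pcgf6, 6.84 ± 12.2 for Cbx2 and 0.775 ± 2.76 for Ring1. RPKM is scaled to transcript length, but the lengths the authors used are not given in the sources used here. The steps between low values did not settle these lengths. The share of low values that were whole reads was lowest for Ezh2 (6.98%), Mtf2 (19.0%), Suz12 (33.3%) and Eed (42.2%). The order of the means is thus uncertain as an order of transcript amount. Neighbours in this order differed by less than the larger of their SDs over cells. Detection means 1 RPKM or more in a given cell. Ezh2, Mtf2, Rnf2, Suz12 and Eed were detected in 83, 82, 81, 76 and 75 of the 86 cells. Bmi1, Cbx2, Pcgf6 and Phf19 were detected in 45, 41, 40 and 31 cells, and Ring1 in 8. The genes thus fell into 5 that most cells of each group expressed, 4 detected in between 36.0% and 52.3% of all cells, and Ring1.

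**Figure D1:**
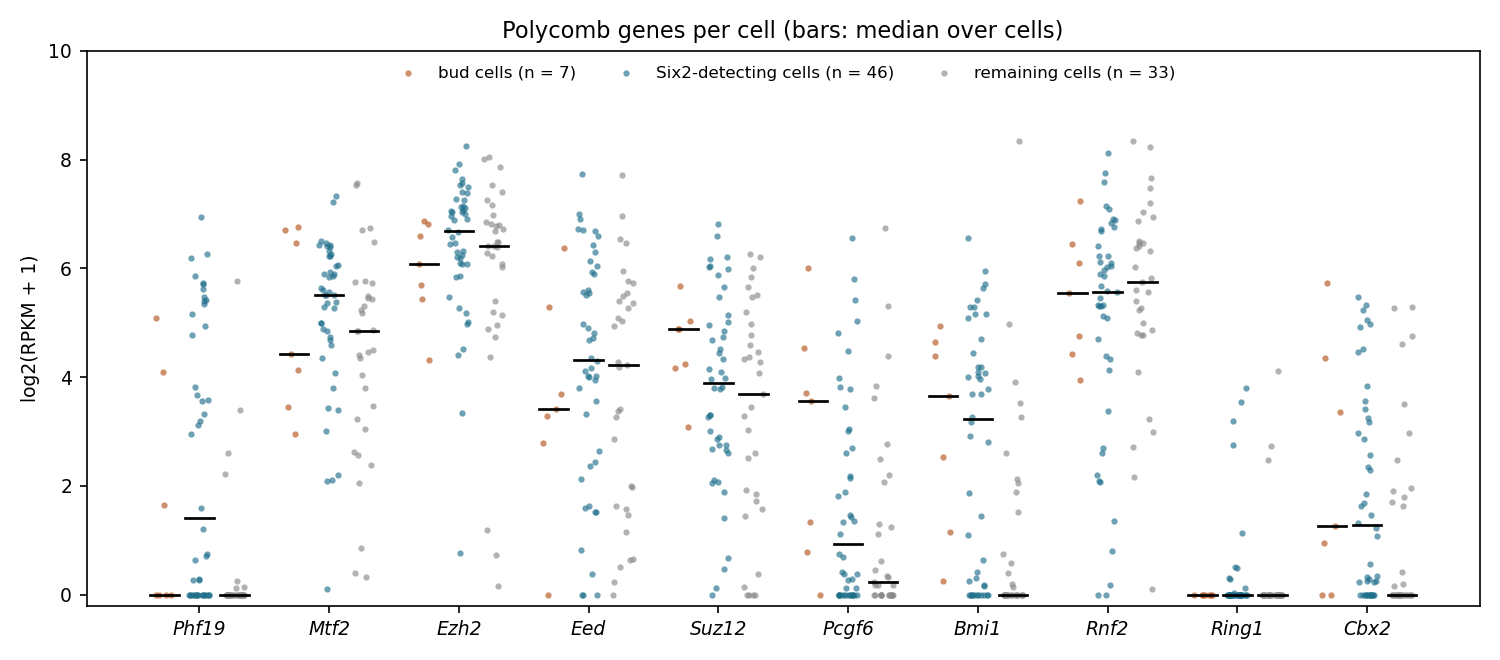
RPKM of each Polycomb gene in each cell, as log2(RPKM + 1) on the vertical axis, for 7 bud cells, 46 Six2-detecting cells and 33 remaining cells; each point is a cell and each bar the median of its group. Ezh2, Rnf2, Mtf2, Eed and Suz12 were above 0 in most cells of every group, while the median of Phf19 was 0 in bud and remaining cells and 1.67 RPKM in Six2-detecting cells.

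Phf19, on chromosome 2 (34749275 to 34769496, mm9), was detected in a larger share of Six2-detecting cells than of remaining cells. It was detected in 3 of 7 bud cells (42.9%, exact 95% interval 9.90% to 81.6%), in 24 of 46 Six2-detecting cells (52.2%, 36.9% to 67.1%) and in 4 of 33 remaining cells (12.1%, 3.40% to 28.2%). These are Clopper-Pearson intervals, and they cover counting error only. In bud cells its level had a lowest value and a median of 0 and a highest of 33.0 RPKM. In Six2-detecting cells the lowest was 0, the median 1.67 and the highest 122 RPKM. In remaining cells the lowest and the median were 0 and the highest was 53.3 RPKM. All 3 groups overlapped at 0. Phf19 was listed at exactly 0 in 4 bud cells, 16 Six2-detecting cells and 26 remaining cells. A listed 0 does not show that the transcript was absent, since depth differed between cells and Suz12, Eed and Rnf2 were also listed at 0 in 5, 5 and 2 cells.

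Mean Phf19 was 7.33 ± 12.8 RPKM in bud cells, 17.8 ± 26.9 RPKM in Six2-detecting cells and 2.18 ± 9.38 RPKM in remaining cells (SD over cells). These means differed from each other by less than the largest of these SDs. The log2 ratio of (mean RPKM + 1) was 2.56 for Six2-detecting over remaining cells. It lay between 1.92 and 3.38 under the alternatives that changed these groups or the ratio. Of the 10 genes it had the largest ratio in this comparison as reported, but not in the cells with a mean log2(RPKM + 1) of at least 4 over 17 genes of G2 and mitosis or in those with at least the median number of detected genes, where Bmi1 had a larger one (2.80 and 2.75, against 1.95 and 1.92 for Phf19). A single remaining cell, with 53.3 RPKM, supplied most of the mean of its group, which was 0.585 RPKM without it. The log2 ratio was 1.39 for bud over remaining cells and −1.18 for bud over Six2-detecting cells. The ratio to remaining cells rested partly on bud cells that also detected Six2: it was 0.66 without those 3 cells.

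Mtf2, the other Polycomb-like gene measured in depth, on chromosome 5 (108494761 to 108538021, mm9), was detected in 7 of 7 bud cells, 45 of 46 Six2-detecting cells and 30 of 33 remaining cells. In bud cells its lowest, median and highest levels were 6.71, 20.6 and 108 RPKM. They were 0.0812, 44.4 and 159 RPKM in Six2-detecting cells, and 0.250, 27.7 and 189 RPKM in remaining cells. The groups overlapped over nearly their whole ranges, and the log2 ratio was 0.34 for bud over remaining cells, 0.30 for Six2-detecting over remaining cells and 0.04 for bud over Six2-detecting cells. Of the 31 cells with Phf19, 30 also detected Mtf2. Mtf2 without Phf19 was seen in 4 of 7 bud cells, in 22 of 46 Six2-detecting cells and in 26 of 33 remaining cells. Phf1, the third Polycomb-like gene, was listed at 0 in all 7 bud cells and detected in 3 Six2-detecting and 3 remaining cells.

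**Figure D2:**
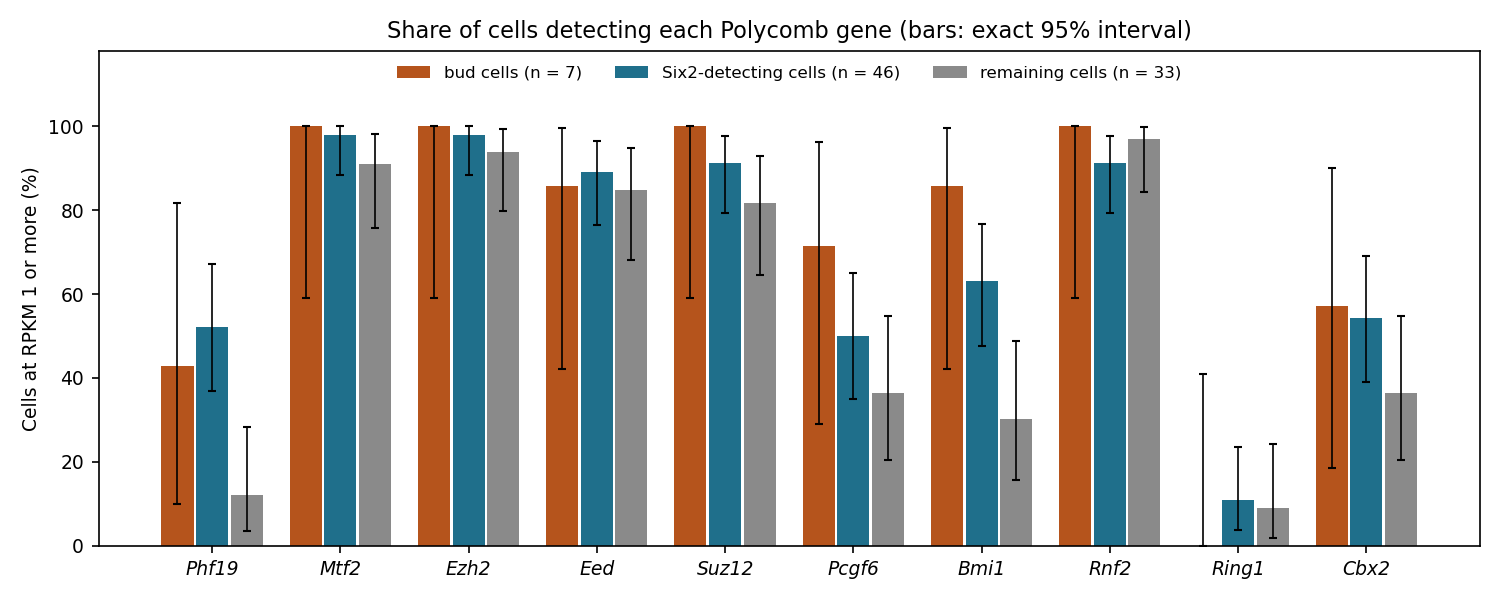
Share of cells in which each Polycomb gene had an RPKM of at least 1, in percent, for bud, Six2-detecting and remaining cells; bars are shares and lines exact 95% intervals over cells. Phf19 reached 52.2% of Six2-detecting cells and 12.1% of remaining cells, and Bmi1 63.0% and 30.3%, whereas Mtf2, Ezh2, Eed, Suz12 and Rnf2 were above 80% in every group.

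The 3 core genes of Polycomb complex 2 were broadly expressed. Ezh2, on chromosome 6 (47480273 to 47545337, mm9), was detected in 7 of 7 bud cells, 45 of 46 Six2-detecting cells and 31 of 33 remaining cells. Its lowest, median and highest levels were 18.8, 66.9 and 115 RPKM in bud cells, 0.698, 102 and 303 RPKM in Six2-detecting cells, and 0.113, 84.6 and 263 RPKM in remaining cells. Every bud cell lay inside the ranges of the other groups, and the log2 ratio was −0.39 for bud over remaining cells and 0.20 for Six2-detecting over remaining cells. Eed, on chromosome 7 (97103164 to 97129486, mm9), had a median of 9.61 RPKM in bud cells (0 to 81.5), 19.0 RPKM in Six2-detecting cells (0 to 212) and 17.7 RPKM in remaining cells (0 to 209). Suz12, on chromosome 11 (79806608 to 79847625, mm9), had a median of 28.5 RPKM in bud cells (7.46 to 50.0), 13.9 RPKM in Six2-detecting cells (0 to 111) and 11.9 RPKM in remaining cells (0 to 75.6). For both genes the groups overlapped throughout. All 3 core genes were detected together in 6 of 7 bud cells, 36 of 46 Six2-detecting cells and 23 of 33 remaining cells.

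Among the genes of Polycomb complex 1, Pcgf6, Bmi1 and Cbx2 were detected in a larger share of bud cells than of remaining cells. Rnf2 was detected in nearly all cells of both groups. The same comparison was not made over all genes, and bud cells had the higher median number of detected genes. Pcgf6, on chromosome 19 (47108109 to 47125335, mm9), was detected in 5 of 7 bud cells (71.4%, 29.0% to 96.3%), 23 of 46 Six2-detecting cells (50.0%, 34.9% to 65.1%) and 12 of 33 remaining cells (36.4%, 20.4% to 54.9%), and these intervals overlap. Its levels in the 7 bud cells ran from 0 over a median of 10.8 to 63.0 RPKM. In Six2-detecting cells the lowest was 0, the median 0.928 and the highest 92.6 RPKM, and in remaining cells the lowest was 0, the median 0.178 and the highest 105 RPKM. The highest Pcgf6 levels were thus in single cells outside the bud group, while its median was highest in bud cells. The log2 ratio was 1.18 for bud over remaining cells, 0.28 for Six2-detecting over remaining cells and 0.90 for bud over Six2-detecting cells. Its direction depended on few cells: without the 3 bud cells that detected Six2, it was −0.061 for bud over remaining cells. The other 4 bud cells detected Pcgf6 in 3, with a mean log2(RPKM + 1) of 2.15, against 1.20 in remaining cells. The mean of remaining cells was 6.42 RPKM, and 3.33 RPKM without the highest of them.

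Bmi1, the PCGF subunit of canonical complexes, on chromosome 2 (18598645 to 18608256, mm9), was detected in 6 of 7 bud cells (85.7%, 42.1% to 99.6%). It was detected in 29 of 46 Six2-detecting cells (63.0%, 47.5% to 76.8%) and in 10 of 33 remaining cells (30.3%, 15.6% to 48.7%). Its lowest, median and highest levels were 0.196, 11.6 and 29.6 RPKM in bud cells, 0, 8.35 and 93.1 RPKM in Six2-detecting cells, and 0, 0 and 322 RPKM in remaining cells. The highest value of all, 322 RPKM, was a single remaining cell, and the next in that group was 30.4 RPKM. The mean in remaining cells was 12.2 RPKM with that cell and 2.55 RPKM without it. The log2 ratio of means for Six2-detecting over remaining cells was 0.30, while the difference of the mean log2(RPKM + 1) was 1.57. For bud over remaining cells these values were 0.09 and 1.98. Over the alternatives the ratio for Six2-detecting over remaining cells ran from 0.0018, against remaining cells with Foxd1, to 2.80, in cells with a G2 and mitosis mean of at least 4. The ratio for bud over remaining cells ran from −0.34 to 2.41, and its direction turned under 3 alternatives.

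Bmi1 and Pcgf6 were both detected in 5 of 7 bud cells, 13 of 46 Six2-detecting cells and 3 of 33 remaining cells. Neither was detected in 1 bud cell, 7 Six2-detecting cells and 14 remaining cells. Phf19 and Bmi1 were both detected in 2 bud cells, in 18 Six2-detecting cells and in 0 of 33 remaining cells. The single counts of these genes alone would give 2.57, 15.1 and 1.21 such cells, so these joint counts are not read as co-occurrence. The joint counts of Bmi1 and Pcgf6 are likewise only a description.

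Of the ubiquitin ligases, Rnf2, on chromosome 1 (153316536 to 153347953, mm9), was detected in 7 of 7 bud cells, 42 of 46 Six2-detecting cells and 32 of 33 remaining cells. Its median was 45.8 RPKM in bud cells (14.5 to 149), 46.5 RPKM in Six2-detecting cells (0 to 278) and 52.6 RPKM in remaining cells (0.0797 to 323). Ring1, on chromosome 17 (34157737 to 34161625, mm9), was listed at 0 in all 7 bud cells, where the exact interval allows a share of up to 41.0%. It was detected in 5 Six2-detecting cells, up to 13.0 RPKM, and in 3 remaining cells, up to 16.3 RPKM. Over all 86 cells the ligase transcript detected was mostly Rnf2, in 81 cells against 8 with Ring1. Cbx2, the gene of a CBX protein that reads methylated histone H3, on chromosome 11 (118884343 to 118892584, mm9), was detected in 4 of 7 bud cells, 25 of 46 Six2-detecting cells and 12 of 33 remaining cells. Its median was 1.404 RPKM in bud cells (0 to 52.0), 1.42 RPKM in Six2-detecting cells (0 to 43.6) and 0 RPKM in remaining cells (0 to 37.9). The mean was 11.9 ± 19.1 RPKM in bud cells, 7.51 ± 12.1 RPKM in Six2-detecting cells and 4.85 ± 10.5 RPKM in remaining cells, with a log2 ratio of 1.14 for bud over remaining cells that lay between −0.17 and 1.71 under the alternatives.

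A log2 ratio of at least 1 in size was taken as past the fold, among 11205 genes with a mean of at least 1 RPKM over all cells. Ring1 did not pass this filter and the other 9 genes did. For bud over remaining cells 3 of the 9 were higher, Phf19, Pcgf6 and Cbx2, where 12% of all genes were higher, and 0 of the 9 were lower, where 23.1% of all genes were. For Six2-detecting over remaining cells 1 of 9 was higher, Phf19, where 7.59% of all genes were, and 0 were lower, where 7.84% were. For bud over Six2-detecting cells 0 of 9 were higher, where 9.88% of all genes were, and 1 was lower, Phf19, where 22.3% were. Since the genes were chosen with such values known, nothing further is read from these counts. The median log2 ratio of the 9 genes was 0.33 for bud over remaining cells, against −0.14 for all genes. It was 0.28 for Six2-detecting over remaining cells, against 0.017 for all genes, and −0.067 for bud over Six2-detecting cells, against −0.18 for all genes. By the difference of mean log2(RPKM + 1), the counts higher were 5 of 9 (Phf19, Suz12, Pcgf6, Bmi1 and Cbx2), where 16.6% of all genes were higher, 2 of 9 (Phf19 and Bmi1), where 4.65% were, and 1 of 9 (Pcgf6), where 11.8% were. The counts lower were 0 of 9 in each comparison, where 7.33%, 1.9% and 7.56% of all genes were lower. The median of all genes was then 0.14 for bud over remaining cells, against the −0.14 of the ratio of means.

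**Figure D3:**
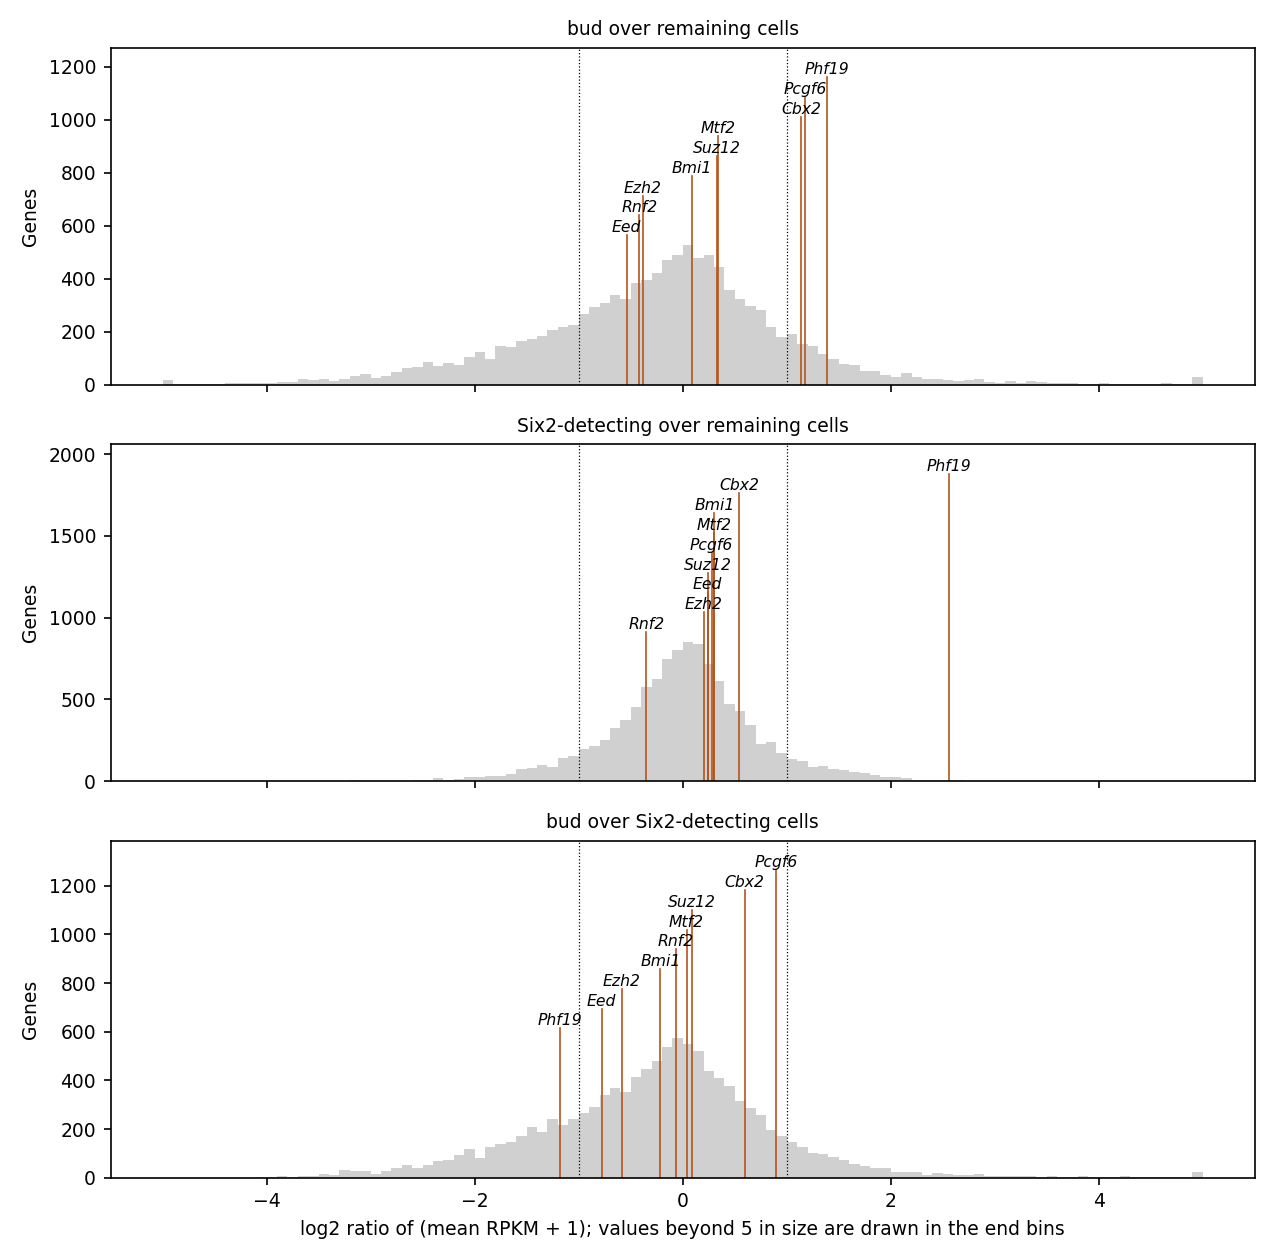
Histograms of the log2 ratio of (mean RPKM + 1) for 11205 genes in the 3 comparisons, with vertical lines at the 9 Polycomb genes kept; dotted lines mark a log2 ratio of 1 in either direction, the vertical axis counts genes, and line heights only separate the names. Phf19 lay at 1.39 for bud over remaining cells, at 2.56 for Six2-detecting over remaining cells and at −1.18 for bud over Six2-detecting cells.

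Most cells with Phf19 had high Crym, a gene on the list of nephron progenitor markers. The 5 genes most like Phf19 over the 86 cells, among 8915 genes detected in at least 20 cells, were Crym (Pearson r = 0.52), Abca14 (0.52), Pgm2l1 (0.47), Eya1 (0.47) and Rnf157 (0.47), by log2(RPKM + 1). Crym, the crystallin mu gene, and Eya1, a transcriptional partner of Six2, are both on that list. The cells share 1 preparation and differ in depth, so these values only describe them. Of the 31 cells with Phf19, 30 had Crym at 100 RPKM or more, with a median of 465 RPKM. Of the 55 cells without Phf19, 22 did, with a median of 16.9 RPKM. Crym was chosen by its likeness to Phf19 in these same cells, so these counts restate that choice. They also differed by group. Among Six2-detecting cells 24 of 24 with Phf19 and 18 of 22 without it had Crym at 100 RPKM or more. Among remaining cells these were 3 of 4 and 4 of 29.

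Crym and Eya1 were picked for their likeness to Phf19 over all cells, bud cells included, so their values within the bud group are a description and no separate support. The 3 bud cells with Phf19 had 275, 397 and 510 RPKM of Crym and 50.4, 65.7 and 84.4 RPKM of Eya1. The 4 bud cells without Phf19 had at most 21.9 RPKM of Crym and 30.5 RPKM of Eya1. These bud cells, which also had Mal2 at 1219 RPKM or more, did not overlap in either gene. Other progenitor genes were mixed there. The bud cells with the highest Six2 (50.4 RPKM), Wt1 (58.4 RPKM) and Meox1 (77.1 RPKM) were without Phf19. Yet Wt1 was at 43.2, 10.2 and 37.1 RPKM in the 3 bud cells with Phf19, against 58.4, 17.4, 0.194 and 0 RPKM in the 4 without it. The rest of the progenitor list is not compared by Phf19 here. Six2 was detected in 2 of the 3 bud cells with Phf19, against 1 of the 4 without Phf19. Cited1, which marks the least committed progenitors, stayed below 1 RPKM in every bud cell, with a highest value of 0.751 RPKM. No doublet caller was run, and the part of chambers that held more than 1 cell was not tested. Of the 4 remaining cells with Phf19, 3 had Crym at 100 RPKM or more and 1 had 1.32 RPKM of Crym, 0.142 RPKM of Eya1 and 0 RPKM of Six2. The cell with the highest Phf19, 53.3 RPKM, had 428 RPKM of Crym and 71.7 RPKM of Cited1.

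**Figure D4:**
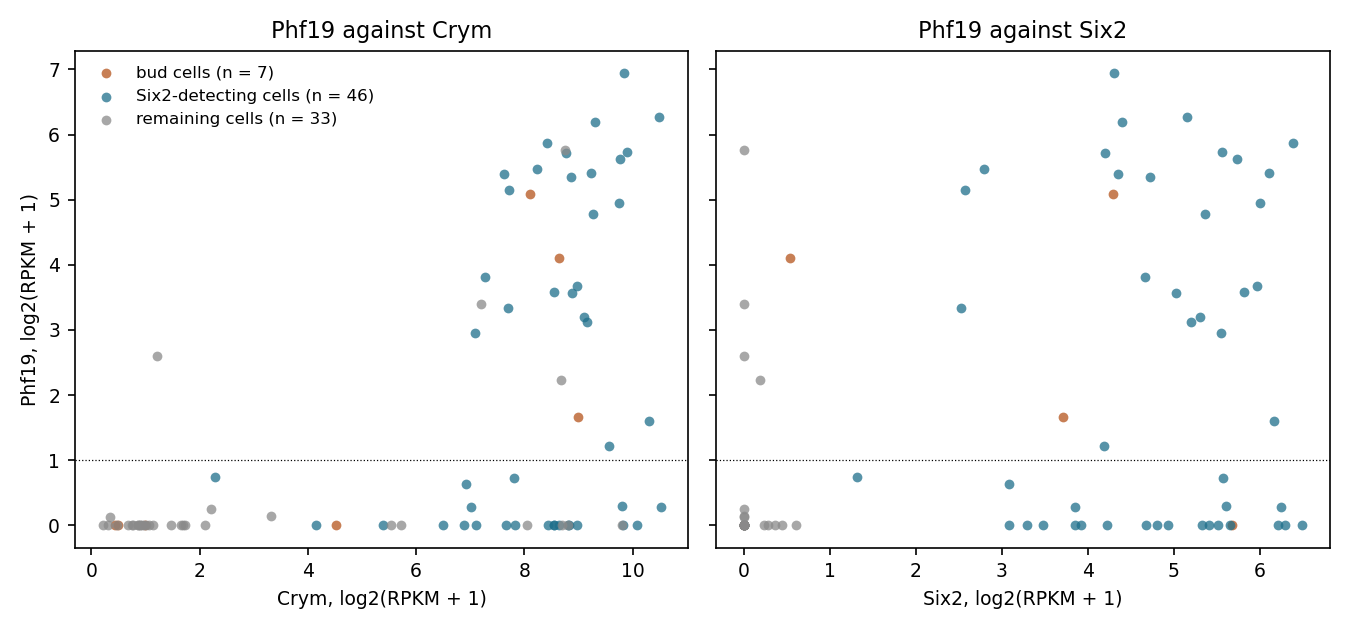
Phf19 against Crym and against Six2 in each of the 86 cells, all as log2(RPKM + 1), coloured by group; the dotted line marks a Phf19 level of 1 RPKM. Of the 31 cells on or above the line, 30 had Crym at 100 RPKM or more, while the Six2 levels of Six2-detecting cells ran over like ranges above and below the line.

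Among the 46 Six2-detecting cells, Six2 itself differed little with Phf19. It averaged 36.9 ± 22.2 RPKM in the 24 cells with Phf19 and 34.5 ± 26.1 RPKM in the 22 cells without it. Crym averaged 575 ± 342 RPKM with Phf19 and 388 ± 380 RPKM without, and Eya1 65.9 ± 53.7 RPKM with and 39.8 ± 33.0 RPKM without. All these differences were smaller than either SD over cells. Those of mean Phf19 between the groups were smaller than the largest SD of the groups. The SD gives the spread over cells and does not measure the error of a difference of means, which was not tested. Cited1 was detected in 16 of 24 cells with Phf19 and in 13 of 22 without. Divided by Cited1 instead, Phf19 averaged 22.5 ± 29.9 RPKM in 29 Six2-detecting cells with Cited1 and 9.74 ± 19.0 RPKM in 17 without. Bmi1 averaged 18.9 ± 22.9 RPKM with Cited1 and 9.31 ± 12.9 RPKM without, and was detected in 21 of 29 and 8 of 17 cells. Pcgf6 averaged 10.7 ± 21.0 RPKM with Cited1 and 3.31 ± 5.74 RPKM without, and was detected in 15 of 29 and 8 of 17 cells. This difference of Pcgf6 means was below the larger SD over cells and above the smaller one.

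Eed was the single gene of the 10 in a second deposited table, of 450 genes in 35 cells. The authors' deposited table gives it a fold of 3.24 for cells called six2only over cells called six2andcited1. Which cells belong to these classes is not named in its columns. The 35 cells include 2 bud cells, and Eed in this table was 1.08 to 1.64 times its level in the main table, so the authors' folds and the values below are not over the same cells or values. In the main table, Six2-detecting cells without Cited1 had 39.9 ± 36.5 RPKM of Eed and those with Cited1 38.4 ± 49.9 RPKM, a log2 ratio of 0.05. Eed was detected in 17 of 17 such cells without Cited1 and in 24 of 29 with Cited1, and the difference of mean log2(RPKM + 1) was 0.83. The authors' deposited table also gives folds of 3.65 for Pcgf1, a PCGF gene, −5.01 for Kdm6a, a histone H3 demethylase gene that opposes Polycomb, and −2.38 for Mll1, a histone methyltransferase gene. Pcgf1 averaged 22.8 ± 24.2 RPKM in Six2-detecting cells without Cited1 and 13.5 ± 22.4 RPKM in those with it. Kdm6a averaged 2.78 ± 3.87 RPKM without Cited1 and 7.09 ± 9.59 RPKM with it, and Mll1 5.80 ± 4.25 RPKM without and 10.3 ± 10.9 RPKM with it. Each of these differences was less than the larger SD over cells, which does not measure the error of a difference of means.

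Of 29 further Polycomb genes, 24 passed the filter. For bud over remaining cells 3 of the 24 were past the fold higher, where 12% of all genes were, and 3 lower, where 23.1% were, with a median log2 ratio of 0.16. By the difference of mean log2(RPKM + 1) 6 were higher, where 16.6% of all genes were, and 1 lower, where 7.33% were. Wdr5, of the variant complex with Pcgf6 and of methyltransferase complexes, had a log2 ratio of 1.16 and Phc1, a Polyhomeotic subunit, 1.14. Rybp, a subunit of variant complexes, had −1.77 and E2f6, the DNA-binding partner of Pcgf6, −1.18. Rybp was detected in 2 of 7 bud cells against 18 of 33 remaining cells, and E2f6 in 3 of 7 against 15 of 33. Genes of the same variant complexes thus lay on both sides by this ratio, with Mga at −0.22 and L3mbtl2 at 0.75. By the difference of mean log2(RPKM + 1) Wdr5 was at 1.46, L3mbtl2 at 0.68, Mga at 0.26, E2f6 at −0.20 and Rybp at −1.41. For Six2-detecting over remaining cells 4 were higher, where 7.59% of all genes were, and 0 lower, where 7.84% were, with a median of 0.32. By the difference of mean log2(RPKM + 1) 4.65% of all genes were higher and 1.9% lower. On that scale 0 were lower and 2 others were higher, Pcgf1 and Wdr5, and none of the 4. Those 4 were Pcgf5 (1.78, detected in 3 Six2-detecting and 1 remaining cell), Cbx8 (1.58, in 8 of 46 and 4 of 33), Ezh1 (1.24, in 26 of 46 and 9 of 33) and Scmh1 (1.07, in 21 of 46 and 6 of 33). Ezh1, the paralog of Ezh2 for the same core, averaged 5.99 RPKM in bud cells, 6.88 RPKM in Six2-detecting cells and 2.33 RPKM in remaining cells. For bud over Six2-detecting cells 1 was higher, where 9.88% of all genes were, and 6 lower, where 22.3% were, with a median of −0.33. By the difference of mean log2(RPKM + 1) the balance turned, with 3 higher, where 11.8% of all genes were, and 0 lower, where 7.56% were. The higher one, named after its value was seen, was Pcgf3, at 1.18, detected in 7 of 7 bud cells against 19 of 46 Six2-detecting cells. Among the lower ones were Cbx8 at −2.61, E2f6 at −1.50, Scmh1 at −1.26 and Pcgf5, which was listed at 0 in all 7 bud cells.

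All 10 genes of a list that opposes Polycomb silencing passed the filter. For bud over remaining cells 0 of 10 were past the fold higher, where 12% of all genes were. Lower were 2 of 10, where 23.1% of all genes were, so that count is no more than the background. These were Bap1, a histone H2A deubiquitinase gene, at −1.33 and Asxl3, which encodes a possible partner of it, at −1.28. For Six2-detecting over remaining cells 0 of 10 were past the fold, where 7.59% of all genes were higher and 7.84% lower. For bud over Six2-detecting cells 0 were higher, where 9.88% of all genes were, and Asxl3 was lower, at −1.44, where 22.3% of all genes were lower. By the difference of mean log2(RPKM + 1) Bap1 alone was past the fold. It was lower for bud over remaining cells, where 7.33% of all genes were lower. Kdm6b, a demethylase gene, was detected in every cell of the 3 groups.

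The levels of the 10 genes were at most weakly correlated with each other. Over their 45 pairs, Pearson r of log2(RPKM + 1) over 86 cells ran from −0.13 to 0.26 with a median of 0.07. The 5 genes most like Pcgf6 were Morn2 (r = 0.45), Abt1 (0.43), Rps4x (0.42), Bex1 (0.39) and Tmf1 (0.38). A cell detected a median of 7 of the 10 genes among bud cells, 7 among Six2-detecting cells and 6 among remaining cells. Their summed RPKM had a median of 254 in bud cells, 320 in Six2-detecting cells and 256 in remaining cells.

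Other measures moved with the groups. The mean log2(RPKM + 1) over 17 genes of G2 and mitosis had a median of 6.13 in bud cells, 5.27 in Six2-detecting cells and 3.27 in remaining cells, while over 13 genes of S phase it was 4.47 in bud cells, 5.23 in Six2-detecting cells and 5.26 in remaining cells. The median number of detected genes was 6488 in bud cells, 6256 in Six2-detecting cells and 6087 in remaining cells. Their part in the differences above was not tested. The log2 ratios in cells restricted on each of these measures are given above for Phf19 and Bmi1. Pearson r with the G2 and mitosis mean, over 86 cells, was 0.39 for Ezh2 (Spearman 0.25), 0.29 for Cbx2 and 0.25 for Phf19. Depth is known only in relative terms: from the steps between low RPKM values, cells differed 20.2-fold in depth, with medians of 0.541 in bud cells, 0.522 in Six2-detecting cells and 0.504 in remaining cells on a common scale. If the smallest step of a gene is 1 read, an RPKM of 1 stood for 9.42 reads of Phf19, 8.12 of Pcgf6 and 7.43 of Bmi1 in the median cell, and for as few as 1.43, 1.24 and 1.13 in the shallowest. Only 61.9% of low Phf19 values were whole multiples of that step (within 0.01), against 76.1% for Pcgf6 and 82.9% for Bmi1, so these are estimates. Transcripts from the Y chromosome were found in most cells (Ddx3y in 82, Uty in 78 of 86) although males and females were pooled, and reads shared with X-linked paralogs were not separated.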

How the data were processed

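Single-cell RNA-seq of 86 cells of 1 pool of kidneys was used as deposited. The authors' values are RPKM, and per the file headers the table keeps genes that passed an RPKM of 3 in 3 or more cells. Another deposited table gives RPKM and the authors' fold between 2 classes of cells, a signed score. TopHat 1.4.1, DESeq and the build mm9 are listed, with no role, per the submitters' processing notes. The gene coordinates, which the deposited table gives, are used as in it. Read totals are not given in the sources used here.

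Cells were grouped by Mal2 (at least 100 RPKM) and Six2 (at least 1 RPKM). The ratio is log2 of (mean RPKM + 1) between groups, and it understates changes of low genes. Shares have exact Clopper-Pearson 95% intervals. No test was made because the cells come from 1 pool, and no count model was used. The members, lists and groups were chosen with earlier results of these data known. Named genes were all 10 members, up to 4 genes per list and comparison past a log2 ratio of 1, by size, and the 5 genes of highest Pearson r with Phf19 and with Pcgf6. Other genes were named as context. Alternatives were other detection limits, a pseudocount of 0.1, means of log values, scaling to a common sum, no filter, and cells left out. Calculations were tested on simulated data. Versions were scipy 1.17.1, matplotlib 3.10.9, pandas 2.3.3 and numpy 2.4.6 under Python 3.11.15.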

Additional observations from a re-analysis of the deposited data

Results flagged for a closer look

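Pcgf6 in bud cells had 1 cell far above the other 6, at 63.0 RPKM with the next cell at 22.3 RPKM. This was the bud cell that also had 12.1 RPKM of Six2. Cbx2 in bud cells likewise had 1 cell far above the others, at 52.0 RPKM with the next at 19.5 RPKM, and this was another cell. For each, the gap to the nearest cell was over 0.568 of the whole range, the limit for 7 cells. The limit is meant to set apart a cell by chance in about 1 of 20 groups when values are spread symmetrically. These RPKM values were not, with Cbx2 at a median of 1.404 and a highest of 52.0 RPKM. That rate therefore need not hold here, and 9 genes were examined in bud cells.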

How the results depend on the processing

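No paired analysis was possible because the cells come from 1 pool, their numbers only name cells, and no test was made. The log2 ratio of Phf19 for Six2-detecting over remaining cells kept its direction, at 1.92 to 3.38, under the alternatives that touch its groups. Leaving out bud cells that detect Six2 touches neither of them. The settings that keep only cells with a G2 and mitosis mean of at least 4 (5 bud, 31 Six2-detecting and 16 remaining cells) or only cells with at least the median number of genes (5, 24 and 14 cells) were chosen after seeing the data. Causes of the shifts below were not tested.

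For bud over remaining cells, Phf19 was at 0.66 without bud cells that detect Six2, 0.55 with the G2 and mitosis setting and 0.97 with the median genes setting. Pcgf6 was at −0.061 without bud cells that detect Six2 and 0.68 with the G2 and mitosis setting, where Cbx2 was at −0.17. The number of members past the fold was 5 by means of log2, 0 at a log2 ratio of 2 and 1 without bud cells that detect Six2. For Six2-detecting over remaining cells, Pcgf6 was at 1.20 against remaining cells with Foxd1 and −0.86 with the G2 and mitosis setting. The number past the fold was 2 by means of log2, without cells of few genes, without the highest cell of each group, against remaining cells with Foxd1 and in both settings added later. For bud over Six2-detecting cells, Phf19 was at −0.88 by means of log2 and −0.96 with the median genes setting. Pcgf6 was at 1.18 by means of log2, −0.34 without bud cells that detect Six2, 1.54 with the G2 and mitosis setting and 1.56 with the median genes setting. The number past the fold was 0 at a log2 ratio of 2, and 2 without the highest cell of each group, without bud cells that detect Six2 and with the G2 and mitosis setting. Shares over all genes were computed only for the ratio as reported and for means of log2, so nothing is read from the other counts.

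Shares of cells moved as follows. At any RPKM above 0, a setting that also moves the Six2 limit and so the groups (52 Six2-detecting and 27 remaining cells), Mtf2 and Ezh2 were in 100% of Six2-detecting and remaining cells, Rnf2 in 100% of remaining cells and Bmi1 in 100% of bud cells. Eed was then in 96.3% of remaining cells, Pcgf6 in 69.2% of Six2-detecting and 59.3% of remaining cells, and Cbx2 in 69.2% of Six2-detecting cells. At a limit of 3 RPKM, with 45 Six2-detecting and 34 remaining cells, Eed was in 64.7% of remaining cells. With the G2 and mitosis setting, Mtf2 and Ezh2 in Six2-detecting and remaining cells and Rnf2 in both reached 100%, and Suz12 93.8% of remaining cells. With the median genes setting, Mtf2 in Six2-detecting cells, Ezh2 in Six2-detecting and remaining cells, Eed in bud cells and Rnf2 in remaining cells reached 100%, Bmi1 79.2% of Six2-detecting cells and Cbx2 57.1% of remaining cells. Bmi1 was in 100% of bud cells without those that detect Six2, Rnf2 in 100% of remaining cells without cells of few genes, and Ezh2 in 100% of Six2-detecting cells scaled to a common sum. Of 336 ratios computed under alternatives, 279 were scored as unchanged, as were 29 of 42 counts and 242 of 270 shares. A ratio that changed sign or crossed a log2 ratio of 1 was not scored as unchanged. Some settings do not touch the groups of a comparison, so its ratios stay the same and count as unchanged. With the Six2 limit of 5 RPKM, Phf19 stayed at 1.39 for bud over remaining cells. The totals are therefore no measure of how stable the results are.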
